A study of Mus musculus with 2 samples.

Results

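The 10 genes described here encode receptors and related proteins with which macrophages and sinusoidal endothelial cells recognise and take up particles and dying cells. They were chosen by name from a list of scavenger and efferocytosis receptors, and each had 1 entry among the 27998 genes of both count tables. Marco, Msr1, Cd163, Cd36, Stab1 and Cd5l are scavenger receptors or a secreted scavenger protein, Vsig4 is the complement receptor of the immunoglobulin family, and Timd4, Mertk and Axl recognise phosphatidylserine on dying cells. The counts come from single liver nonparenchymal cells, the cells left in suspension once hepatocytes are spun down, of C57BL/6 mice. The yap1 library came from mice described as yap1 flox/flox lyz2 cre, in which Cre from the Lyz2 locus, active in cells of the myeloid lineage, deletes floxed Yap1 alleles. The other library came from wild-type mice, and whether they were littermates is not stated. Both were a fibrosis model given carbon tetrachloride 4 times, and each library is a sample from 3 mice, per the labels. With 1 library per genotype no difference below has a replicate check, no test or p-value is given, and every 95% interval covers counting error only.

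Efferocytosis is the removal of dying cells by phagocytes. Receptors such as Timd4 bind phosphatidylserine on the dying cell directly, while Mertk and Axl are receptor kinases that bind it through the bridging proteins Gas6 and protein S. Scavenger receptors take up modified lipoproteins, microbial products and debris from the blood, and in the liver this work is shared between Kupffer cells, the resident macrophages of the sinusoids, and the sinusoidal endothelium.

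The yap1 library held 4731 barcodes with 34234353 unique molecules (UMIs), and the wild-type library 5269 barcodes with 30386545. Of these, 4149 yap1 and 4847 wild-type barcodes passed filters on depth, genes and mitochondrial share, with median depths of 5323 UMIs in yap1 and 4115 in wild type, and 5 barcode sequences occurred in both libraries. Barcodes were sorted into gates by summed UMIs of marker lists that hold none of the 10 genes. The Kupffer gate (Clec4f, Fcna, C6 and others) held 172 yap1 and 317 wild-type barcodes, which is 4.15% (3.56 to 4.80%) and 6.54% (5.86 to 7.27%) of the barcodes kept. The macrophage gate, set by Gpnmb, Trem2, Ms4a7 and others, held 394 yap1 and 276 wild-type barcodes, the monocyte gate (Ly6c2, Ccr2, Vcan and others) 248 and 259, and the endothelial gate (Stab2, Clec4g, Kdr and others) 333 and 467. Each of these gates had 0 markers of another class among its 10 leading genes, an outcome that the gate rule favours. Own markers among these 10 were 5 in the Kupffer, 3 in the macrophage, 2 in the monocyte and 0 in the endothelial gate. The leading genes of the monocyte gate include Elane, Mpo and Ctsg, which are genes of myeloid progenitors, so this gate is called by its gate name only. Median depths differed widely, from 2858.5 UMIs in yap1 and 2199 in wild-type Kupffer-gated barcodes to 16014.5 in yap1 and 13189 in wild-type macrophage-gated barcodes. B-gated barcodes (931 yap1, 1321 wild type, medians 4416 and 3670 UMIs) should lack most of these receptors, and their level is given as a reference for free RNA. Depths differ between gates, so a level not above theirs does not show that a gate lacks the gene. Nor does a level above theirs show that a shallower gate expresses it. The B-gated barcode with most Marco held 27 of 74 UMIs in yap1 and 12 of 149 in wild type. Yap1 itself had 0 UMIs in the Kupffer and monocyte gates of both libraries, and 2 UMIs in yap1 and 7 in wild-type macrophages. In the endothelial gate it was found at 66.1 CPM (UMIs per 1000000 UMIs of the gate) in both libraries, so its counts check the deletion in no myeloid gate.

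Marco, Vsig4, Cd5l and Timd4 formed a set whose UMIs lay mostly in Kupffer-gated barcodes, and their proximal promoters are printed because these are the genes on which the following results turn. Each line holds the 250 bases before the gene start on the gene's own strand, from RefSeq promoters of GRCm38.p6, the build also called mm10. Capitals mark the letters TGCTGA or their reverse complement TCAGCA, a short stretch that MAF family factors recognise.
Marco: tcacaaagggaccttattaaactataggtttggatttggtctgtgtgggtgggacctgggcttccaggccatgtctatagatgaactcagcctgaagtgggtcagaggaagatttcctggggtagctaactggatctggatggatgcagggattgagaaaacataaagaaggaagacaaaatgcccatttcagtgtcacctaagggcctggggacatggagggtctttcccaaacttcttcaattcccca
Vsig4: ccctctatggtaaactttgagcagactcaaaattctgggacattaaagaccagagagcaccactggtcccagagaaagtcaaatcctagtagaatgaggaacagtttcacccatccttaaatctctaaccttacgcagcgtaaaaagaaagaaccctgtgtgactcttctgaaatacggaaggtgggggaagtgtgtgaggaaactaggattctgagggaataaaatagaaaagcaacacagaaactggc
Cd5l: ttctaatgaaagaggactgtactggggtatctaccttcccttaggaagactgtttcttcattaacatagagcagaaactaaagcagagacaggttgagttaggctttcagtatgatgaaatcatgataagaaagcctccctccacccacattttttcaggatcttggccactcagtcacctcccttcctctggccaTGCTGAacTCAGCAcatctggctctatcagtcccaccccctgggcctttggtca
Timd4: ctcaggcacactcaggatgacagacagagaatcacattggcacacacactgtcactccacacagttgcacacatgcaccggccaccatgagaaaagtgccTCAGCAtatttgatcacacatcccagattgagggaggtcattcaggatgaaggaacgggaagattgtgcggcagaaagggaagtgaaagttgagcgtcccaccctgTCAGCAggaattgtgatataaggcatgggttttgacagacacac

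These windows are chr1:120505025-120505274 (minus strand) for Marco, chrX:96293439-96293688 (minus strand) for Vsig4, chr3:87357631-87357880 (plus strand) for Cd5l and chr11:46810549-46810798 (plus strand) for Timd4. Cd5l held the MAF letters at positions -54 and -46 before its start, and Timd4 at -150 and -44. Among the other receptor genes with a promoter in the table, Cd36 held them at -11 and Stab1 at -43, so 4 of 9 promoters did, against 16.1% of 32851 promoters of all genes. The Cd36 window (chr5:17835897-17836146, minus strand) lies inside the gene span of 17781690 to 17888801, so it precedes an internal start. The core letters bound by TEAD factors, the DNA-binding partners of Yap1 (GGAATG or CATTCC), were in 1 of the 9 promoters, that of Axl at -233, against 12.6% of all. The PU.1 or ETS letters GAGGAAGT were in 0 of the 9 and in 2.44% of all promoters. Both strands were searched, and a match describes the letters only. The Msr1 promoter was not analysed here.

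Marco, the class A scavenger receptor with a collagen-like stem, stood at 9669 CPM (9451 to 9890) in yap1 and 8272 CPM (8115 to 8431) in wild-type Kupffer-gated barcodes. Its next highest level in yap1 was 58.4 CPM, in nonclassical monocytes, and in wild type 81.7 CPM, in neutrophils. Of these UMIs, 28 of 66 in yap1 and 66 of 107 in wild type lay in 1 barcode. B-gated barcodes held 16.2 CPM of Marco in yap1 and 27.4 CPM in wild type. Of all Marco UMIs, 87.4% in yap1 and 79.2% in wild type lay in the Kupffer gate. Vsig4, which binds complement C3b on circulating particles, stood at 2236 CPM (2132 to 2344) in yap1 and 2046 CPM (1969 to 2126) in wild-type Kupffer-gated barcodes. Its Kupffer share of UMIs was 79.4% in yap1 and 71.7% in wild type. Timd4, a phosphatidylserine receptor of long-lived resident macrophages, stood at 563 CPM (512 to 619) in yap1 and 536 CPM (497 to 578) in wild type, with 84.4% and 79.3% of its UMIs there. In the other 10 gates its level reached no more than 7.08 CPM (8 UMIs, yap1 nonclassical monocytes).

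Cd5l, a secreted scavenger protein of macrophages also called AIM, stood at 7914 CPM (7717 to 8114) in yap1 and 7859 CPM (7707 to 8014) in wild-type Kupffer-gated barcodes. It was also found in the macrophage gate, at 133 CPM (125 to 143) in yap1 and 397 CPM (377 to 418) in wild-type macrophages, where B-gated barcodes held 9.62 CPM and 20.4 CPM. Marco did not stand above B-gated barcodes in macrophages, but both genes did in neutrophils, Cd5l at 27.8 CPM in yap1 and 68.7 CPM in wild type, and Marco at 40.4 and 81.7 CPM. Cd163, the receptor for hemoglobin bound to haptoglobin, had 98 UMIs in yap1 and 132 in wild-type Kupffer-gated barcodes, or 126 CPM (103 to 154) and 103 CPM (85.9 to 122). Its Kupffer share of UMIs was 74.8% in yap1 and 62.0% in wild type, and B-gated barcodes held 0 UMIs in both, which allows up to 0.656 and 0.552 CPM. Plasmacytoid dendritic cells held 5 Cd163 UMIs in yap1 and 11 in wild type, or 6.25 and 9.81 CPM.

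Mertk and Axl were shared by several gates. Mertk was at 188 CPM (159 to 221) in yap1 and 164 CPM (143 to 188) in wild-type Kupffer-gated barcodes. In the endothelial gate it was at 176 CPM (151 to 203) in yap1 and 163 CPM (144 to 184) in wild type, so in each library these gates overlap in their intervals. Macrophages were lower at 116 CPM (108 to 125) in yap1 and 138 CPM (126 to 151) in wild type, and the wild-type intervals of the macrophage and Kupffer gates still overlap. Axl was highest in Kupffer-gated barcodes, at 548 CPM (497 to 602) in yap1 and 493 CPM (455 to 533) in wild type. Its level in macrophages was 283 CPM (270.1 to 296) in yap1 and 339 CPM (321 to 359) in wild type. In endothelial-gated barcodes Axl was lower than in either, at 26.5 CPM (17.6 to 38.2) in yap1 and 20.01 CPM (13.8 to 28.1) in wild type, which stood above B-gated barcodes (2.19 and 4.6 CPM).

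Msr1, the class A scavenger receptor for modified lipoproteins, was at 393 CPM (350.2 to 440) in yap1 and 309 CPM (279 to 341) in wild-type Kupffer-gated barcodes, and at 359 CPM (324 to 397) and 324 CPM (298 to 353) in endothelial-gated barcodes, with overlapping intervals between the gates of each library. Cd36, a receptor for oxidised lipids and long-chain fatty acids, and Stab1, a receptor that clears modified lipoproteins and cell debris, were highest in the endothelial gate. Cd36 stood there at 1418 CPM (1347 to 1492) in yap1 and 1271 CPM (1217 to 1327) in wild type, and Stab1 at 1304 CPM (1236 to 1375) and 1117 CPM (1066 to 1169). Macrophages came next for both, with 284 CPM of Cd36 in yap1 and 226 CPM in wild type, and 245 CPM of Stab1 in yap1 and 192 CPM in wild type.

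**Figure D1:**
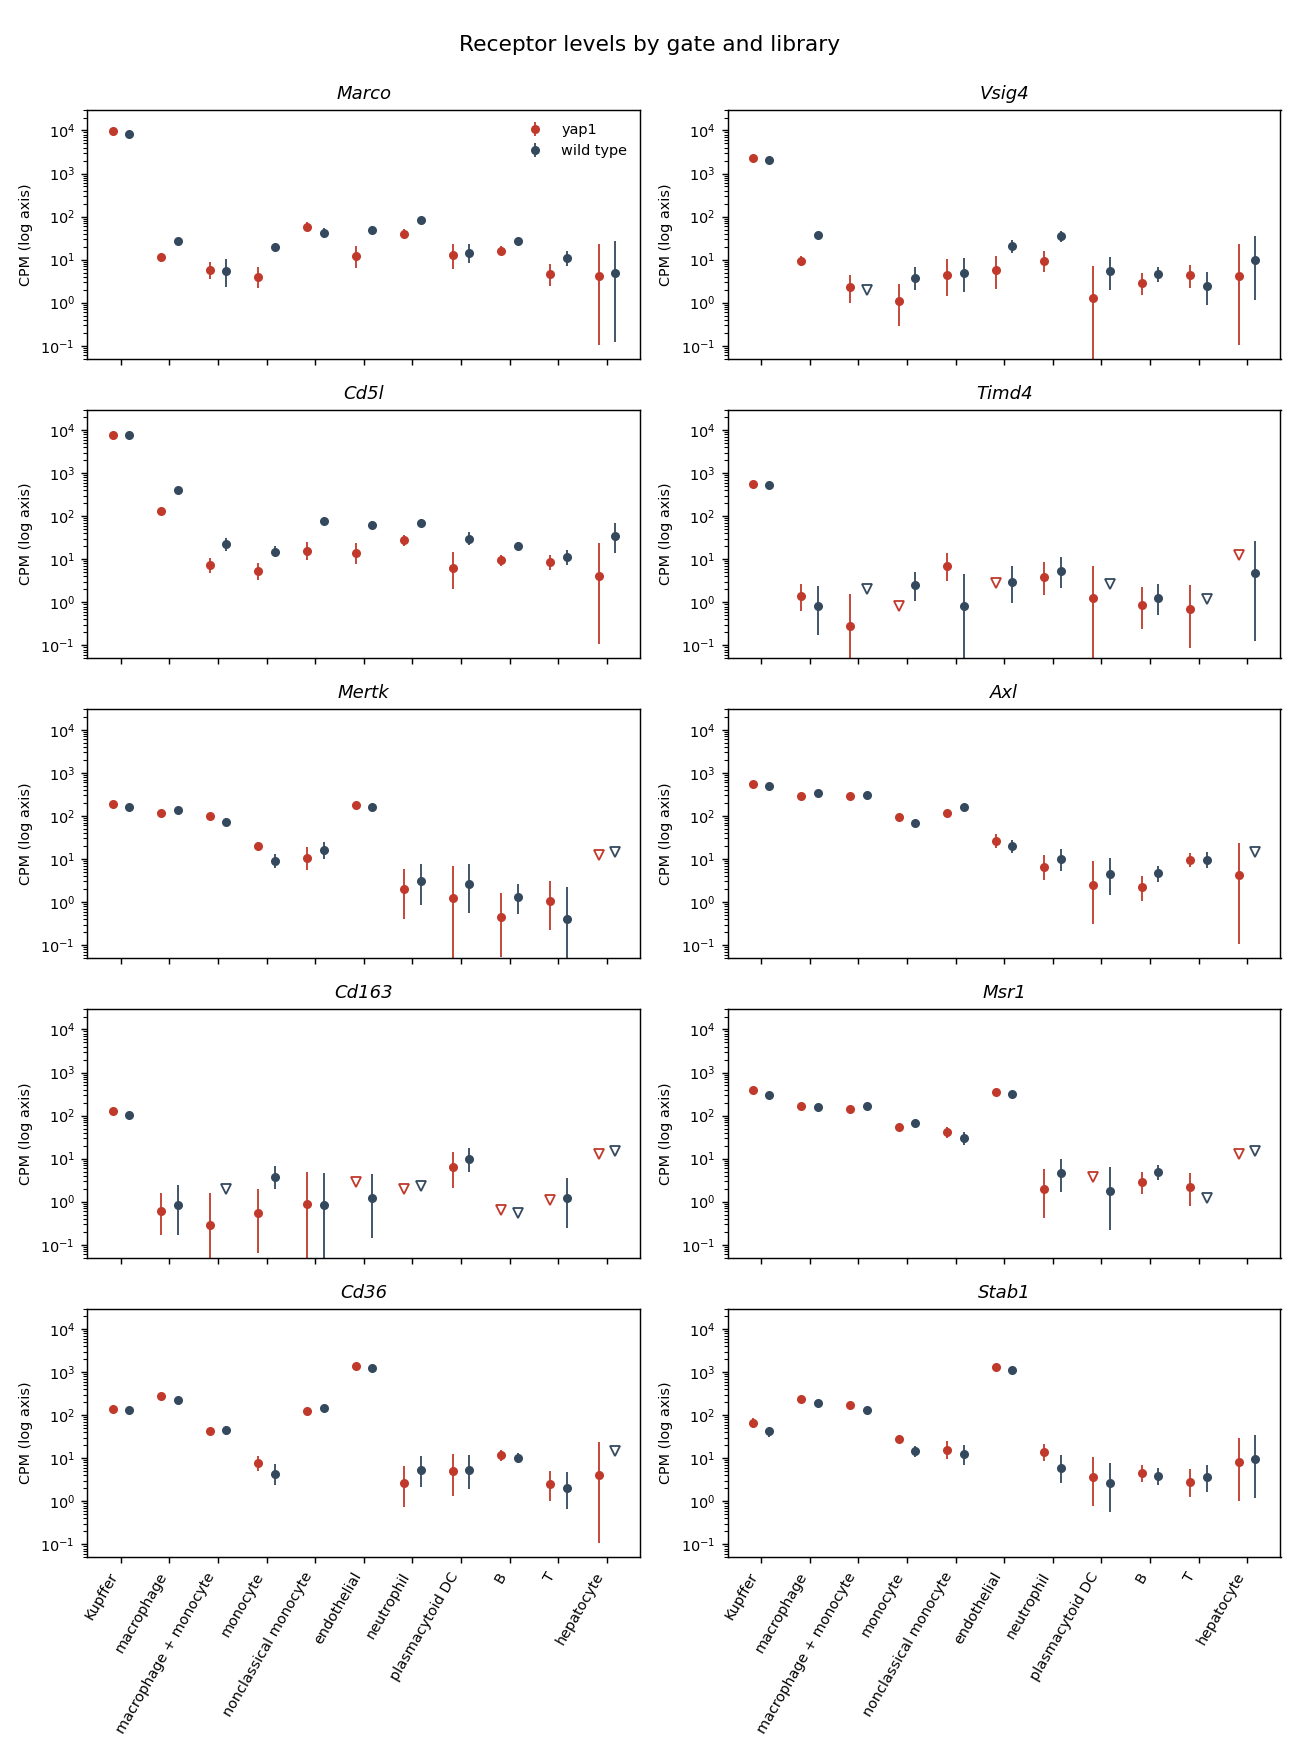
Level of each receptor gene (CPM, log axis) in 11 gates with at least 50 barcodes in each library, yap1 in red and wild type in grey, with 95% Poisson intervals for counting error. Open triangles mark a gate with 0 UMIs, drawn at the level that 3 UMIs would give. Marco, Vsig4, Timd4 and Cd163 peak in the Kupffer gate, while Cd36 and Stab1 peak in the endothelial gate.

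Across the 22 sums of 11 gates in both libraries, the pattern most like that of Marco was Timd4 (Pearson r of log2(CPM + 1) 0.943), followed by the B cell chemokine gene Cxcl13 (0.939) and Vsig4 (0.923). Vsig4 was most like Cd5l (0.933). Mertk was most like Msr1 (0.968) and Msr1 most like Parvb (0.990), while Axl was most like Ckb (0.972), C1qb (0.957) and C1qc (0.957). Cd36 was most like Itga9 (0.95), Stab1 like Bvht (0.964) and Cd163 like Pcolce2 (0.862), a marker used for the Kupffer gate. The sums of 1 library share its preparation and free RNA, so these values describe the pattern only.

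Within the Kupffer gate the receptors differed little between the libraries. Of 10 genes, 0 were lower and 1 was higher in yap1 past 1.5-fold, where 11.2% of the 7349 genes with at least 20 UMIs were lower and 10.2% higher. On the log2 scale the median ratio of yap1 over wild type was 0.18 for the receptors and 0.02 for all genes. Marco had a ratio of 1.17 (1.13 to 1.20), Vsig4 of 1.09 (1.03 to 1.16), Cd5l of 1.01 (0.975 to 1.04) and Timd4 of 1.05 (0.929 to 1.19). Msr1 had a ratio of 1.27 (1.09 to 1.48), within the fold used. Mertk, Axl, Cd163 and Cd36 had ratios of 1.15, 1.11, 1.23 and 1.09, each with an interval that spans 1. These directions depended on how barcodes were grouped or thinned. With clusters in place of gates, 8 of the 10 ratios fell below 1. After thinning to 1000 UMIs 5 did, and 4 did when a gate needed a lead of 10 times over other lists. Marco was then at 0.856 with clusters, 0.972 after thinning and 0.832 with the lead of 10 times. Cd36 passed the fold as lower, at 0.589 with clusters and 0.662 after thinning, and Mertk passed it as higher, at 1.84 with the lead of 10 times. Cd163 stood at 0.747 after thinning. Cd5l reached 0.711, Vsig4 0.808 and Timd4 0.791 with clusters, all within the fold. The clusters called Kupffer held more barcodes than the gate and were less pure. Cluster 4 held 125 yap1 and 305 wild-type barcodes, and 93.3% of those in a gate were Kupffer-gated. Cluster 10 held 145 and 188, at 70%. The part of the other barcodes in the cluster ratios was not tested.

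The gene past 1.5-fold was Stab1, with 52 UMIs in yap1 and 54 in wild type, or 67.0 CPM (50.0 to 87.9) and 42.0 CPM (31.5 to 54.8). Its ratio was 1.60 (1.07 to 2.38). With each barcode given equal weight the ratio was 1.14, within the fold, and after thinning too few UMIs were left to count it (ratio 2.44). With the lead of 10 times the ratio was 2.51. Of 9 markers of the endothelial gate, where Stab1 is highest, 6 were found in Kupffer-gated barcodes in yap1 and 8 in wild type. Oit3, Tie1 and Flt4 were at 0 in yap1 and Gpr182 was at 0 in wild type. The summed level of the 9 markers was 65.7 CPM (48.9 to 86.4) in yap1 and 83.2 CPM (68.2 to 100.5) in wild type, or 0 to 4 and 0 to 5 UMIs per barcode. The gate rule sets apart barcodes with many endothelial markers, and the part of endothelial RNA in the Stab1 ratio was not tested.

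Single Kupffer-gated barcodes carried the set together. After each was thinned to 1000 UMIs, which kept 155 yap1 and 284 wild-type barcodes, Timd4 was found in 47.1% (39.0 to 55.3%) of yap1 and 45.8% (39.9 to 51.8%) of wild-type barcodes, a ratio of 1.03 (0.762 to 1.38). Unthinned, it was found in 73.3% and 68.8%. In B-gated barcodes thinned alike it was found in 0.324% in yap1 and 0.153% in wild type. All of Marco, Vsig4, Cd5l and Timd4 were found in 40.6% (32.8 to 48.8%) of yap1 and 36.6% (31.0 to 42.5%) of wild-type barcodes, and 3 of these 4 in 43.9% and 46.8%. Marco was found in 94.2% (89.3 to 97.3%) of yap1 and 91.2% (87.3 to 94.2%) of wild-type barcodes, and Cd5l in 96.8% and 99.3%. For each of these shares the intervals of the libraries overlap.

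**Figure D2:**
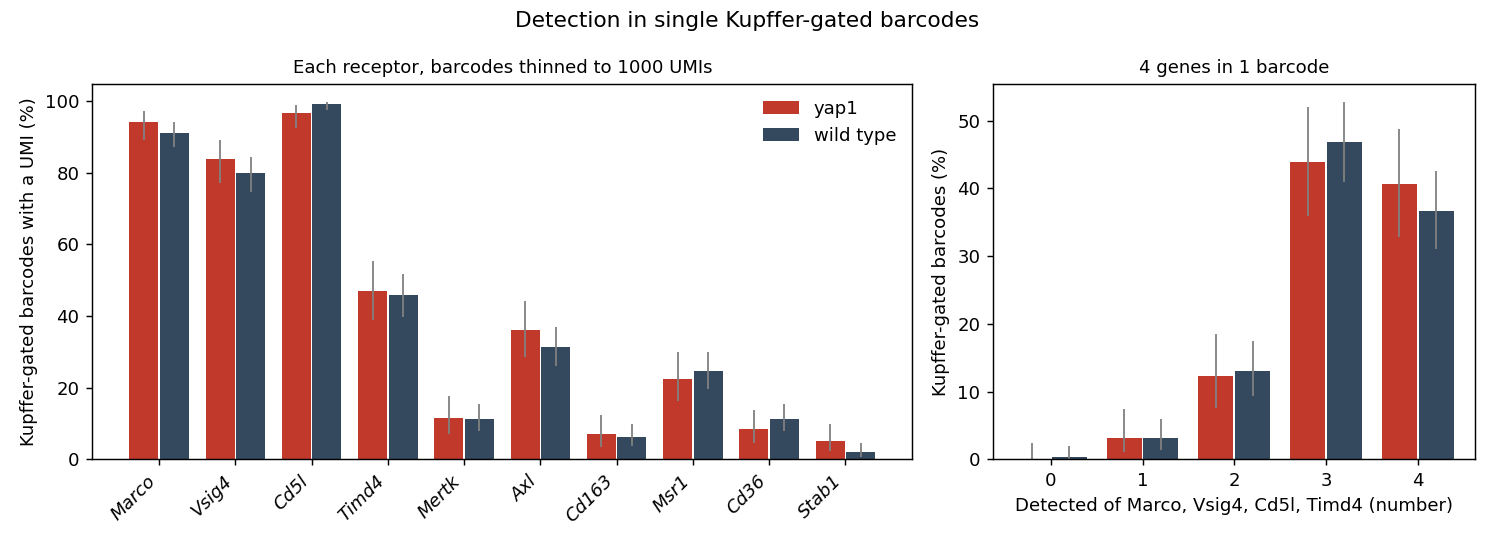
Left, share of Kupffer-gated barcodes (%) with at least 1 UMI of each receptor after thinning to 1000 UMIs, yap1 in red and wild type in grey. Right, share of the same barcodes (%) by how many of Marco, Vsig4, Cd5l and Timd4 were found. Bars carry 95% Clopper-Pearson intervals for counting error, and the intervals of the libraries overlap for every bar pair.

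Kupffer-gated barcodes with a Timd4 UMI carried more Marco than those without. In yap1, Marco stood at 10545 CPM (10297 to 10797) in the 126 barcodes with Timd4 and 5047 CPM (4659 to 5459) in the 46 without. In wild type it stood at 9233 CPM (9047 to 9423) in the 218 with Timd4 and 4772 CPM (4518 to 5036) in the 99 without. Cd163 showed the same order, at 144 CPM (117 to 176) with Timd4 and 32.4 CPM (8.81 to 82.8) without in yap1, and at 118 CPM (97.7 to 141) and 46.9 CPM (25.0 to 80.2) in wild type. Vsig4 was at 2334 and 1723 CPM in yap1 and at 2219.6 and 1414 CPM in wild type. Axl did not separate them, at 546 and 558 CPM in yap1 and 497 and 476 CPM in wild type. Clec4f, the lectin that helps define the gate, was at 3732 and 2467 CPM in yap1 and at 3044 and 2417 CPM in wild type. Barcodes with a Timd4 UMI were deeper, with medians of 3101 and 1644 UMIs in yap1 and 2580.5 and 1688 in wild type, and the part of depth was not tested.

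In the macrophage gate Marco, Vsig4 and Cd5l were lower in yap1. They were the 3 lower genes among 8 with at least 20 UMIs, and 0 were higher, where 7.87% of 10100 genes were lower and 6.20% higher past the same fold. Cd5l had 858 UMIs in yap1 and 1444 in wild type, a ratio of 0.336 (0.308 to 0.366), and was found in 23.9% and 29.7% of barcodes. Vsig4 had 61 UMIs (9.48 CPM) in yap1 and 138 (37.9 CPM) in wild type, a ratio of 0.25 (0.182 to 0.340), against 2.84 and 4.6 CPM in B-gated barcodes. These came from few barcodes: 18 in yap1 and 15 in wild type, of which the 5 with most held 73.8% and 86.2%. Without those 5 barcodes in each library the ratio was 0.472 (0.227 to 0.970), and after thinning to 1000 UMIs it was 0.526. Marco had 11.3 CPM (8.89 to 14.3) in yap1 and 26.7 CPM (21.6 to 32.5) in wild type. Its ratio was 0.426 (0.310 to 0.583), and neither level was above that of B-gated barcodes, which were shallower. How much of the Marco level is free RNA was not tested.

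Kupffer markers were present in this gate in both libraries. Of 8, 7 were found in yap1 (Pcolce2 at 0) and 7 in wild type (Kcna2 at 0), with a summed level of 156 CPM (147 to 166) in yap1 and 188 CPM (174 to 203) in wild type, or 0 to 61 and 0 to 113 UMIs per barcode. Clec4f alone gave 37 of these 1004 UMIs in yap1 and 24 of 685 in wild type, so most of the sum came from other listed genes. Its 5.75 and 6.60 CPM did not stand above B-gated barcodes (4.37 and 6.62 CPM). With barcodes holding a Clec4f UMI left out, a check added after the data were seen, the macrophage ratio was 0.345 for Cd5l and 0.229 for Vsig4. In the Kupffer gate the same list summed to 7094 CPM in yap1 and 5880 CPM in wild type. Kupffer markers set the Kupffer gate. They only limit the macrophage gate, which takes a barcode that passes both lists if its macrophage markers lead at least 3 times. The part of Kupffer RNA or cells in the Cd5l and Vsig4 values of macrophages was not tested. Barcodes that met both lists without a lead, 20 in yap1 and 33 in wild type, were set apart and not compared.

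The other receptors of the macrophage gate were close between the libraries. Mertk had a ratio of 0.840 (0.749 to 0.943), and Axl a ratio of 0.835 (0.776 to 0.898). Msr1 had a ratio of 1.08 (0.975 to 1.20), Cd36 of 1.26 (1.16 to 1.37) and Stab1 of 1.27 (1.16 to 1.39). Cd36 was unevenly spread, with 14.6% of its UMIs in 5 barcodes in yap1 and 34.2% in wild type, and without those its ratio was 1.62 (1.47 to 1.79), past the fold. After thinning to 1000 UMIs, Cd36 was on the other side of 1 at 0.936, and Stab1 was past the fold at 1.83. The median log2 ratio was -0.26 over the 8 receptors and -0.00 over all genes. Timd4 (9 UMIs in yap1, 3 in wild type) and Cd163 (4 and 3) were too few to compare and not above B-gated barcodes.

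In the monocyte gate 3 receptors were higher and 2 lower in yap1 among 7 with at least 20 UMIs, where 7.27% of 9372 genes were lower and 6.17% higher. Mertk had 73 UMIs in yap1 and 29 in wild type, or 19.5 CPM (15.3 to 24.5) and 9.10 CPM (6.09 to 13.1), for a ratio of 2.15 (1.38 to 3.42), and was found in 16.9% and 6.18% of barcodes. Stab1 had 106 UMIs in yap1 and 47 in wild type, a ratio of 1.92 (1.35 to 2.77), found in 25.0% and 12.4%. In B-gated barcodes these shares were 0.215% and 0.379% for Mertk and 2.04% and 1.36% for Stab1. Thinned to 1000 UMIs, the monocyte-gated shares were 3.24% (1.41 to 6.28%) and 1.94% (0.632 to 4.46%) for Mertk, and 3.64% and 1.94% for Stab1, with overlapping intervals. The Stab1 ratio was no longer past the fold with a lead of 10 times (1.27) or with clusters in place of gates (1.48), and after thinning both genes had too few UMIs to be counted, at 1.88 for Stab1 and 1.92 for Mertk. Mertk stayed past the fold with the lead (5.56) and with clusters. Axl stood at 96.6 CPM (86.9 to 107) in yap1 and 66.8 CPM (58.2 to 76.4) in wild type. Its ratio of 1.44 (1.22 to 1.72) was just within the fold. Axl passed the fold under 5 alternatives, at 1.97 after thinning, but was close to 1 with the lead of 10 times (1.06).

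Cd36 had 29 UMIs in yap1 and 14 in wild type here, a ratio of 1.77 (0.904 to 3.62) at levels not above B-gated barcodes. The lower genes Marco (15 and 62 UMIs) and Cd5l (20 and 48) were not above B-gated barcodes either. Markers of the macrophage gate moved the same way as Mertk and Stab1. Of 6, 5 were found in each library with Atp6v0d2 at 0, and their summed level was 282 CPM (265 to 300) in yap1 and 212 CPM (196 to 229) in wild type, or 0 to 22 and 0 to 16 UMIs per barcode. Their part in the Mertk and Stab1 ratios was not tested. Barcodes that met both the monocyte and the macrophage list numbered 227 in yap1 and 111 in wild type. In these Mertk stood at 98.2 CPM (88.1 to 109) in yap1 and 73.4 CPM (60.3 to 88.6) in wild type, and Stab1 at 177 CPM (164 to 192) and 130 CPM (112 to 150), levels between those of the monocyte and the macrophage gate.

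In the endothelial gate the receptors with most UMIs were close between the libraries. Stab1 had a ratio of 1.17 (1.09 to 1.25), Cd36 of 1.12 (1.04 to 1.19), Msr1 of 1.11 (0.968 to 1.26) and Mertk of 1.08 (0.889 to 1.30). Axl, with 28 UMIs in yap1 and 33 in wild type, had a ratio of 1.32 (0.770 to 2.26), but 17 of the yap1 UMIs came from 1 barcode, and without the 5 barcodes with most UMIs the ratio was 0.534 (0.192 to 1.30). Of 8 receptors with at least 20 UMIs, 3 were lower and 0 higher in yap1, where 9.91% of 9106 genes were lower and 6.06% higher. The 3 were Marco, with 12.3 CPM in yap1 and 49.7 CPM in wild type (ratio 0.247, 0.126 to 0.446), Vsig4, with 5.67 and 20.6 CPM (0.275, 0.0944 to 0.662), and Cd5l, with 14.2 and 62.5 CPM (0.227, 0.122 to 0.392). In yap1 their levels did not stand above those of B-gated barcodes, and in wild type they did. Endothelial-gated barcodes were shallower than B-gated ones, with medians of 2199 UMIs in yap1 and 2286 in wild type. Marco stood at 0.633 and Cd5l at 0.480 when each barcode went to its highest list with no lead, and Vsig4 had too few UMIs to be counted after thinning or without the 5 barcodes with most of it. Of 8 Kupffer markers, 7 were found in this gate in yap1 (Fabp7 at 0) and 8 in wild type. Their summed level was 410 CPM (372 to 450.5) in yap1 and 372 CPM (344 to 403) in wild type, or 0 to 11 UMIs per barcode in both. Clec4f gave 11 of these 434 UMIs in yap1 and 17 of 614 in wild type, with a CPM ratio of 1.01 (0.427 to 2.28). Its level did not stand above B-gated barcodes. In the Kupffer gate Clec4f gave 2739 of 5504 UMIs of the list in yap1 and 3742 of 7564 in wild type. Most of the endothelial sum thus came from other listed genes, and it is not a measure of Kupffer RNA there. The part of Kupffer RNA in the 3 lower ratios was not tested.

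Outside these 4 gates the 3 genes did not all move one way. In neutrophils the ratios of Marco, Vsig4 and Cd5l were 0.495, 0.264 and 0.405, but 30 of 61 Marco UMIs in yap1 and 66 of 107 in wild type lay in 1 barcode. Without the 5 neutrophil-gated barcodes with most UMIs, a check added after the data were seen, the ratio was 1.03 (0.407 to 2.66) for Marco, 0.643 (0.0942 to 3.80) for Vsig4 and 0.357 (0.153 to 0.776) for Cd5l. In B-gated barcodes the ratios were 0.590 (0.441 to 0.785) for Marco, 0.618 (0.290 to 1.25) for Vsig4 and 0.471 (0.325 to 0.674) for Cd5l, beside summed Kupffer markers of 10.7 CPM in yap1 and 17.7 CPM in wild type. In T-gated barcodes Marco was at 0.428 and Cd5l within the fold at 0.763, and Vsig4 had 12 UMIs in yap1 and 6 in wild type. Marco was within the fold in plasmacytoid dendritic cells (0.876) and in barcodes that met both the macrophage and the monocyte list (1.06), while Cd5l was lower in both (0.206 and 0.334). In nonclassical monocytes Cd5l stood at 15.9 CPM (9.45 to 25.2) in yap1 and 78.4 CPM (63.5 to 95.8) in wild type (ratio 0.203, 0.116 to 0.338). Marco had 58.4 CPM in yap1 and 41.7 CPM in wild type there (ratio 1.40, 0.959 to 2.06). This Marco came from 10 barcodes in yap1 and 14 in wild type, with 28 of 66 and 23 of 51 UMIs in 1 barcode. How much of each value is free RNA was not tested.

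**Figure D3:**
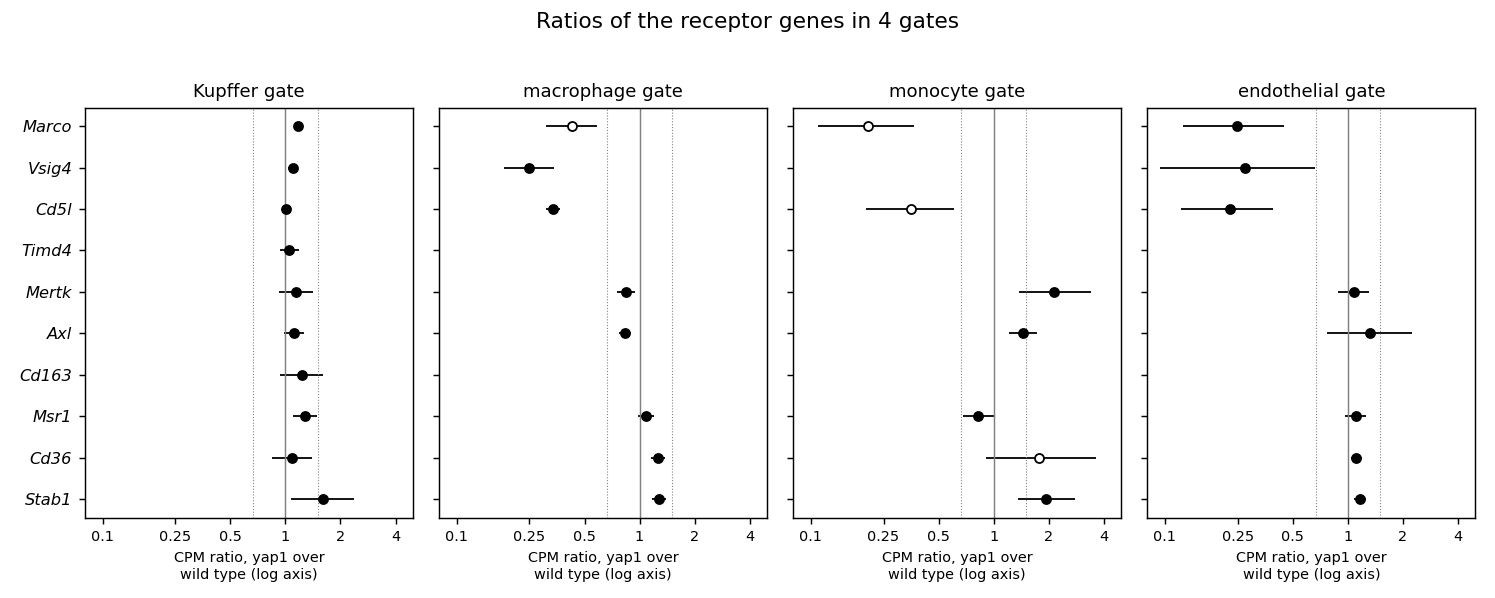
CPM ratio of yap1 over wild type (log axis) for each receptor with at least 20 UMIs in 4 gates, with 95% intervals for counting error. The solid line marks 1 and the dotted lines 1.5-fold, and open circles mark genes whose level stood above that of B-gated barcodes in neither library. Marco, Vsig4 and Cd5l lie below the dotted line in the macrophage and endothelial gates and close to 1 in the Kupffer gate.

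Of 62 other genes of the engulfment pathway, 61 had an entry, and 47 had at least 20 UMIs in the Kupffer gate without being gate markers. In yap1, 5 were lower and 3 higher, at a median of -0.08 on the log2 scale, where 11.2% of all genes in this gate were lower and 10.2% higher, so the count is near the share over all genes. The lower genes included Colec12, a collectin scavenger receptor (15 UMIs in yap1 and 57 in wild type, ratio 0.436), Cd300a, an inhibitory phosphatidylserine receptor (0.657), and Elmo1 and Dock8, which act upstream of Rac and Cdc42 in the cytoskeleton (0.559 and 0.548). Mylip, the ligase that removes the LDL receptor, stood at 0.521. The 3 higher genes, named after their values were seen, were Gas6, Scarf1 and Dock1, each with under 20 UMIs per library and an interval that spans 1. C1qc, an opsonin subunit that binds dying cells, was at 3753 CPM in yap1 and 4168 CPM in wild type, a ratio of 0.900.

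In macrophages 3 of 52 such genes were lower and 0 higher, where 7.87% of all genes were lower and 6.20% higher. The 3 lower genes included Stab2 with only 11 UMIs in yap1 and 10 in wild type, named after its values were seen. Mfge8, which bridges phosphatidylserine to integrins, had 61 UMIs in yap1 and 92 in wild type, a ratio of 0.375 (0.267 to 0.524), and Nr1h3, the LXR alpha gene of cholesterol sensing, had 130.4 CPM in yap1 and 212 CPM in wild type with a ratio of 0.614 (0.557 to 0.678). Lgals3, an opsonin that binds Mertk, was within the fold at 1.49 (1.45 to 1.52), and the scavenger receptor and chemokine Cxcl16 at 0.677 (0.631 to 0.726). In the monocyte gate, where 7.27% of all genes were lower and 6.17% higher, 1 of 50 was lower, Nr1h3 at 0.648, and 2 were higher, the integrin gene Itgb5 at 1.71 (1.42 to 2.06) and the lipase gene Lpl at 1.59 (1.36 to 1.86). In the endothelial gate 9 of 45 were lower and 0 higher, where 9.91% of all genes were lower and 6.06% higher. C1qa and C1qc, which are macrophage products, stood at 0.322 and 0.3797 there. C1qa was at 29.3 CPM in yap1 and 91.0 CPM in wild type, where 57 of its 150 UMIs lay in 1 barcode. In B-gated barcodes its ratio was 0.2425, at 13.3 CPM in yap1 and 55.0 CPM in wild type. How much of these values is free RNA was not tested.

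The counting of these genes is little affected by near copies. Of the 50-base words in the last bases of their transcripts, none (0%) recurred in another gene for 8 of the 10, and 0.872% did for Cd163 and 0.183% for Stab1. Mertk (chromosome 2, 128698956 to 128802894) overlaps the predicted genes Gm14011 and Gm23172, and Stab1 (chromosome 14, 31139013 to 31168641) overlaps Nt5dc2 on the other strand. Whether strand was used in counting is unknown from the sources at hand, so reads of such pairs may not be separable. The remaining genes, in mm10 with GENCODE M21, are Marco (chromosome 1, 120474538 to 120505024), Vsig4 (X, 96247203 to 96293438), Cd5l (3, 87357881 to 87371073), Timd4 (11, 46810800 to 46844332), Axl (7, 25757273 to 25788705), Cd163 (6, 124304656 to 124330527), Msr1 (8, 39581685 to 39642673) and Cd36 (5, 17781690 to 17888801), each with 0 overlapping genes.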

How the data were processed

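Single-cell RNA of liver nonparenchymal cells was counted in 1 yap1 and 1 wild-type library. The deposited tables hold whole-number counts per gene and barcode, per the file headers and values, with no normalization by the authors, and they are treated as UMI counts. Per the submitters' processing notes the build was mm10, and Bowtie 0.12.2 and Seurat are listed without their roles. How reads were counted, with which annotation, whether by strand, and how barcodes were selected are not given in the sources used here. A count can be raised by free RNA or by barcodes that hold more than 1 cell.

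Barcodes were kept from 500 UMIs and 200 genes upwards if mitochondrial genes gave no more than 20% of UMIs. A barcode passed a gate with at least 3 UMIs over at least 2 markers of 1 of 19 lists, and was assigned to the list with most UMIs if that was at least 3 times every other passed list. Otherwise it was mixed (14.7% of yap1 and 10.6% of wild-type barcodes), and 5.23% and 6.19% passed no gate. No receptor gene is a marker. Scrublet's automatic threshold (scanpy 1.11.5) marked 0.0964% of yap1 and 0.0619% of wild-type barcodes and was taken not to have worked, so doublets were only set apart as mixed.

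Sums of UMIs per gate and library were scaled to CPM and carry exact Poisson intervals. Ratios are yap1 over wild type with exact conditional binomial intervals, shares carry Clopper-Pearson intervals, all at 95%, and 0 counts are read as allowing up to 3. UMIs without replicate libraries give no test. A gene counted as lower or higher past 1.5-fold with at least 20 UMIs over both libraries, and stood above B-gated barcodes where its lower bound exceeded their upper bound. Of the 62 pathway genes, 1 had no entry and is not analysed here. Per gate, up to 2 genes of each pathway list that had 50 UMIs or more and moved furthest on the log2 scale were candidates to be named, and the 3 genes most like each receptor, with at least 200 UMIs. The receptors, marker lists and pathway lists were chosen with earlier results of these data known. Gene IDs matched GENCODE M21 for 27645 of 27998. Calculations were tested on simulated counts. Python 3.11.15, numpy 2.4.6, scipy 1.17.1 and pandas 2.3.3 were used. Alternatives changed the gates, filters, doublet handling, weighting, scaling, depth and minimum, or used clusters, and 3 were added after the data were seen.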

Additional observations from a re-analysis of the deposited data

Results flagged for a closer look

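Barcodes that passed no gate (217 in yap1, 300 in wild type) were outside every comparison, yet the receptors named below stood above B-gated barcodes in them, in both libraries. Marco stood at 75.7 CPM in yap1 and 523.7 CPM in wild type, Vsig4 at 20.8 and 108.7 CPM, and Cd5l at 87.1 and 443.8 CPM. Timd4 stood at 17.0 CPM in yap1 and 30.1 CPM in wild type, and Cd36 at 34.1 and 55.0 CPM. Mertk stood at 36.0 CPM in yap1 and 20.95 CPM in wild type, Axl at 136 and 107 CPM, Msr1 at 66.3 and 62.9 CPM, and Stab1 at 43.6 and 32.7 CPM. What these barcodes hold was not tested.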

How the results depend on the processing

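No paired analysis was possible because each genotype had 1 library. Over 33 receptor ratios and up to 13 alternatives each, 333 values stayed within the counting interval of the ratio and 85 moved outside it. Among the 12 ratios past 1.5-fold, 1 value lay on the other side of 1, that of Cd36 in the monocyte gate, 0.522 when barcodes were thinned to 1000 UMIs. Among the 21 ratios within 1.5-fold, 38 of 264 values lay on the other side of 1, and 27 of these were in the Kupffer gate, over 8 genes. Marco, Vsig4 and Cd5l were the lower genes of the macrophage gate under each alternative, joined by Cd163 (4 genes) with clusters in place of gates, with Cd5l between 0.261 and 0.368 and Vsig4 between 0.1495 and 0.526 over the 11 that gate, filter, weight or thin barcodes. The other counts were less stable. In the Kupffer gate, 1 gene was lower (Cd36) with clusters in place of gates and 1 (Cd36) after thinning, against 0, and 2 were higher with a lead of 10 times (Stab1 and Mertk), 0 with barcodes weighted equally and 0 after thinning, against 1. In the macrophage gate 1 was higher with clusters (Timd4), 1 after thinning (Stab1) and 1 without the 5 barcodes with most UMIs (Cd36), against 0. In the monocyte gate 1 was lower with a lead of 10 times (Marco), 1 after thinning (Msr1, not among the main 2) and 0 with a minimum of 100 UMIs, against 2, and 1 was higher with that lead (Mertk), 1 with clusters (Mertk) and 1 after thinning (Axl, not among the main 3), against 3. In the endothelial gate 1 was lower (Cd5l) with the minimum of 100 UMIs, against 3, and 1 was higher (Axl) under the stricter filter, against 0. The causes were not tested. The ratio of Timd4 shares lay between 0.846 and 1.16 over its 11 alternatives. Clusters held 55.8% of monocyte-gated barcodes in monocyte clusters, against 98.6% for Kupffer and 99.8% for endothelial. These shares leave out the barcodes that clusters held beyond the gate, which were many for Kupffer. Kupffer-gated barcodes were shallow, which limits what can be seen of genes such as Cd163 and Stab1.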
